A study of Mus musculus with 24 samples.

Results

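The response of the mouse uterus to repeated progesterone (P4) was compared between mice that lack the progesterone receptor (PRKO) and wild-type (WT) mice, 40 h after the first injection. The quantity described is a difference of effects, the log2 change of P4 against vehicle in WT uteri minus the same change in PRKO uteri, so a positive value means a higher P4 effect in WT. It was computed for all 12422 probe sets of the array that are not controls, out of 12488, from 12 of the study's 24 arrays. The 4 groups of 3 arrays were PRKO uteri given P4, PRKO uteri given vehicle, WT uteri given P4 and WT uteri given vehicle. P4 was injected at 1 mg per mouse in sesame oil, 4 times at intervals of 12 h, vehicle uteri received the oil alone, and all uteri were taken 4 h after the last injection. Every mouse of every group had been ovariectomized at 6 weeks of age and was treated 2 weeks later, so all uteri came from animals without ovaries, and no source used here gives the strain. The other 12 arrays held the same genotypes and treatments 4 h after a single injection. Each pool of RNA came from 5 mice. Nothing in the labels tells separate pools from repeats of 1 pool within a group, so each error and p-value describes the spread between arrays, which may be technical.

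P4 acts in the uterus through the progesterone receptor, a nuclear receptor that binds DNA after taking up the hormone and changes transcription of its target genes. In the mouse uterus it is known for restraining estrogen-driven growth of the epithelium and for preparing epithelium and stroma for the embryo, through genes such as Ihh, Hoxa10 and Lrp2. P4 can also act through other receptors, and the PRKO arm measures the effect of P4 without its own nuclear receptor.

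The 12 arrays were even in level, with median signals of 329 to 342.6 as deposited, before further scaling, and arrays of 1 group correlated at 0.987 to 0.994 on average. All 13 measured markers of uterine tissue had signal on every array, the lowest at 110.2. The targeted gene Pgr gave 126, 112 and 110.2 on PRKO P4 arrays and 119.8, 139 and 129.6 on PRKO vehicle arrays, and 156, 169 and 144 on WT P4 arrays and 155, 128 and 157 on WT vehicle arrays. All 3 PRKO P4 arrays lay below all 3 WT P4 arrays, whereas PRKO and WT vehicle arrays overlapped. The PRKO minus WT difference of Pgr was −0.34 ± 0.08 under P4 (limma, adjusted p = 0.0307) and −0.14 ± 0.08 in vehicle uteri (limma, adjusted p = 1). No source used here says whether its probes lie in the deleted part, so this signal does not check the genotype labels, and 2.59% of all probe sets passed the comparison under P4, 1.47% as lower in PRKO.

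The P4 response at 40 h differed between the genotypes for a small set of genes, in each of which the response was measured in WT and was small in PRKO. Spink1, S100g, Acot7, Acod1, Sec23b, Alox12e and Pcmt1 had a higher P4 effect in WT, and Cndp2, Tiam1 and Kcnq1 a lower one. By limma with Benjamini-Hochberg adjustment, 13 of 12422 probe sets passed at an adjusted p under 0.05, which is 0.105% of all. Of these, 10 had a higher effect in WT (0.0805%) and 3 a lower one (0.0242%), and the 11 that are annotated to a single gene named 10 genes. With the values as deposited, without further scaling, 11 passed, 7 higher and 4 lower. An unadjusted p under 0.05 was reached by 1130 probe sets, against 621.1 by chance.

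**Figure D1:**
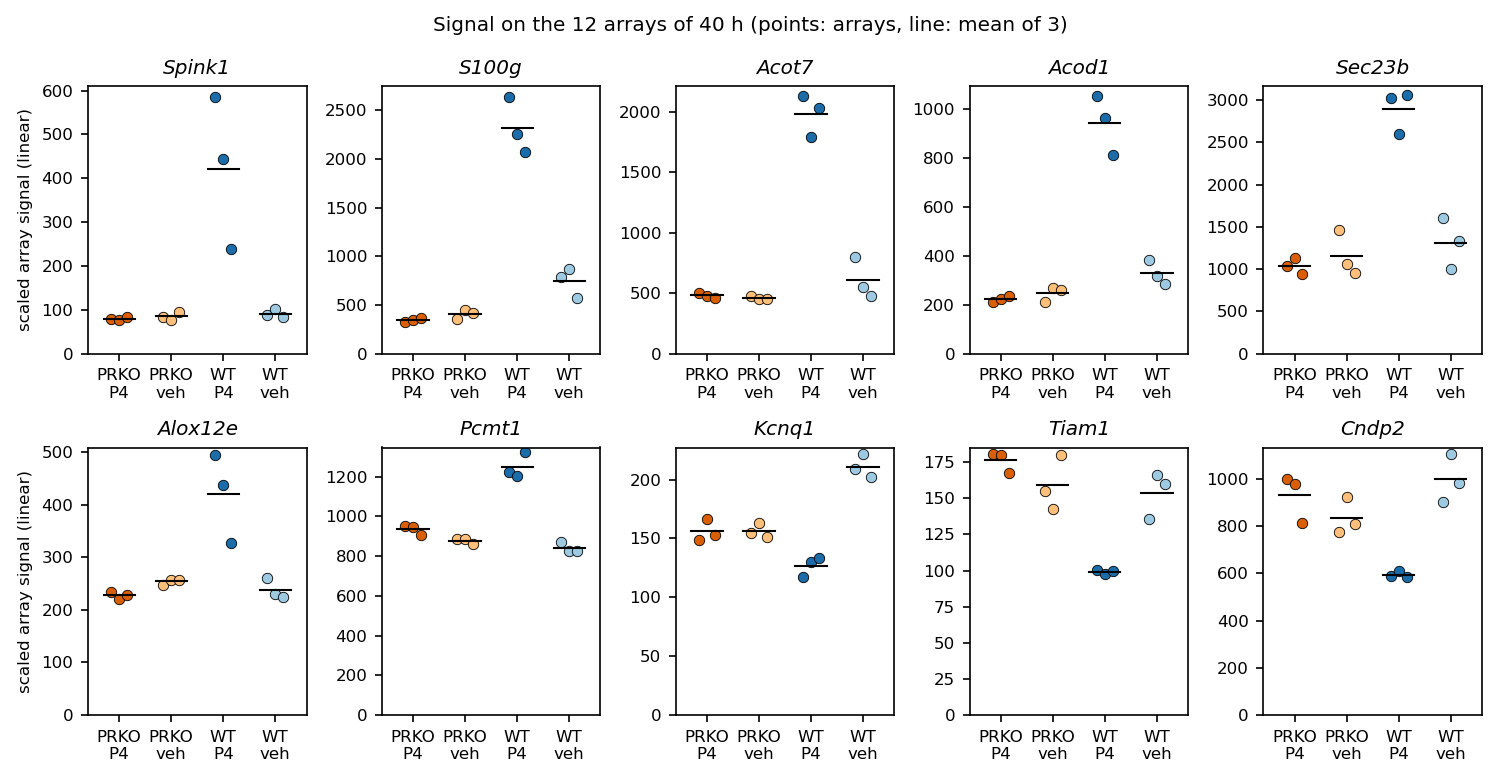
Scaled array signal (linear, from 0) of the 10 genes whose difference of P4 effects passed at 40 h, with points for the 3 arrays and a line for their mean in PRKO P4, PRKO vehicle, WT P4 and WT vehicle uteri. In every panel the 3 WT P4 arrays stand apart from the 3 WT vehicle arrays, and S100g is shown for the brighter of its 2 probe sets.

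Among the secreted and calcium-handling products, Spink1, which encodes a secreted inhibitor of trypsin-like proteases, had the highest difference of all probe sets. Its signal was 77.9, 77.2 and 84.4 on PRKO P4 arrays and 82.9, 76.6 and 94.5 on PRKO vehicle arrays, and 585, 443 and 238 on WT P4 arrays and 88.3, 101 and 82.6 on WT vehicle arrays. All 3 WT P4 arrays lay far above the other 9, although they varied widely among themselves, and the PRKO arrays of both treatments overlapped. The PRKO effect was −0.06 ± 0.17 and the WT effect 1.81 ± 0.17 on the log2 scale, a difference of 1.87 ± 0.25 (limma, adjusted p = 0.000748).

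S100g encodes calbindin-D9k, a small protein that binds calcium in the cytoplasm and takes part in its transport across epithelia. The brighter probe set read 328, 344 and 361 on PRKO P4 arrays and 354, 444 and 415 on PRKO vehicle arrays, and 2633, 2260.4 and 2073 on WT P4 arrays and 788, 872 and 573 on WT vehicle arrays. The WT P4 arrays were the highest and did not overlap any other group, while the PRKO groups overlapped each other. The difference of effects was 1.82 ± 0.23 (limma, adjusted p = 0.000748), with a PRKO effect of −0.21 ± 0.17 and a WT effect of 1.61 ± 0.17. A second, dimmer probe set gave a difference of 1.47 ± 0.19 (limma, adjusted p = 0.000748), again with a PRKO effect near 0 (−0.04 ± 0.14) and a WT effect of 1.44 ± 0.14. S100g was also lower in PRKO among the vehicle uteri of 40 h. There PRKO minus WT was −0.82 ± 0.17 at the brighter probe set, which did not pass (limma, adjusted p = 0.0822), and −0.75 ± 0.14 at the dimmer one, which did (limma, adjusted p = 0.0444). Of all probe sets 0.0644% passed this comparison and 0.0483% were lower in PRKO. At 4 h the vehicle arrays of the brighter probe set overlapped between the genotypes. Those of the dimmer one did not, with 104, 95.2 and 84.3 in PRKO and 111, 163 and 187 in WT. Lrp2, the endocytic receptor megalin of epithelial cells and a known P4 target, lay lower in PRKO vehicle uteri too (−1.40 ± 0.20, limma, adjusted p = 0.00462). Its signal was 184, 157 and 153 on PRKO P4 arrays and 144, 167 and 133 on PRKO vehicle arrays, and 1054, 869 and 1052 on WT P4 arrays and 655, 383 and 339 on WT vehicle arrays. Its difference of effects, 0.98 ± 0.28, did not pass (limma, adjusted p = 0.315).

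Of the enzymes, Acot7, a thioesterase that splits long-chain acyl-CoA, gave 505, 475 and 463 on PRKO P4 arrays and 479, 454 and 448 on PRKO vehicle arrays, and 2132, 1792 and 2031 on WT P4 arrays and 800.2, 549 and 476 on WT vehicle arrays. The PRKO arrays of both treatments lay within a narrow range and the WT P4 arrays stood well above every other array. The PRKO effect was 0.06 ± 0.17 and the WT effect 1.68 ± 0.17, a difference of 1.62 ± 0.24 (limma, adjusted p = 0.00258). Acod1, known from macrophages as the enzyme that makes itaconate and described as a P4-regulated gene of the uterine epithelium, read 209.7, 224 and 234 on PRKO P4 arrays and 211, 269 and 260.3 on PRKO vehicle arrays, and 1050.1, 960.0 and 810.4 on WT P4 arrays and 381, 317 and 284 on WT vehicle arrays. Its WT P4 arrays were all above every other array. The difference was 1.56 ± 0.21 (limma, adjusted p = 0.000748), from a PRKO effect of −0.13 ± 0.15 and a WT effect of 1.44 ± 0.15. A second, dim probe set of Acod1 gave a difference of 0.55 ± 0.13 that did not pass (limma, adjusted p = 0.11).

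Alox12e encodes a lipoxygenase of the epidermal type, which oxidizes polyunsaturated fatty acids. Its signal was 235, 221 and 228 on PRKO P4 arrays and 248, 258 and 258 on PRKO vehicle arrays, and 496, 437 and 327 on WT P4 arrays and 261, 230.2 and 224 on WT vehicle arrays. The PRKO P4 arrays lay below the PRKO vehicle arrays and the WT P4 arrays above the WT vehicle arrays, both without overlap. The PRKO effect, −0.14 ± 0.10, did not pass (limma, adjusted p = 0.711), while the WT effect was 0.73 ± 0.10 and the difference 0.87 ± 0.14 (limma, adjusted p = 0.00923). A second probe set gave 0.52 ± 0.11 (limma, adjusted p = 0.0745). Pcmt1, a methyltransferase that repairs damaged aspartyl residues of proteins, showed the smallest difference that passed. It gave 951, 948 and 905 on PRKO P4 arrays and 887, 888 and 860.2 on PRKO vehicle arrays, and 1226, 1204 and 1322 on WT P4 arrays and 872, 827 and 825 on WT vehicle arrays. Here P4 arrays lay above vehicle arrays in both genotypes, by 0.09 ± 0.06 in PRKO, which did not pass, and 0.55 ± 0.06 in WT, and the difference was 0.47 ± 0.09 (limma, adjusted p = 0.0491). The 2 other probe sets of Pcmt1 gave 0.12 and 0.17, and neither passed.

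Sec23b encodes a subunit of the coat of the vesicles that carry new proteins from the endoplasmic reticulum to the Golgi. Its signal was 1032, 1129 and 939 on PRKO P4 arrays and 1460.4, 1060.2 and 957 on PRKO vehicle arrays, and 3023, 2604 and 3062 on WT P4 arrays and 1599.8, 1003 and 1326 on WT vehicle arrays. The WT P4 arrays did not overlap the rest, and the PRKO groups overlapped each other. In PRKO the effect was −0.14 ± 0.18, the WT effect 1.15 ± 0.18 and the difference 1.29 ± 0.25 (limma, adjusted p = 0.0491), which puts Sec23b at the edge of the threshold. The other probe set of Sec23b gave a difference of 0.11 ± 0.13, so the 2 probe sets disagree.

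The promoters of the 10 genes were searched for the DNA half-site that progesterone, glucocorticoid and androgen receptors share, TGTTCT or AGAACA on the other strand, and for the full site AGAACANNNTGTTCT. RefSeq (GRCm38.p6) gave 10 windows for 7 of the genes, S100g, Acot7, Acod1, Sec23b, Alox12e, Pcmt1 and Tiam1, each from 250 bases before to 50 bases after a start. No window held the full site, which is in 3 of all 32851 windows (0.00913%). The half-site was in 1 of the 10 windows, against 18.97% of all windows. That window belongs to the second of 2 annotated starts of Sec23b, at chr2:144564649-144564948 on the plus strand. It is shown as the 1 window that holds a half-site, with the half-sites in capitals, 2 of them side by side. It holds 5, and 8 of all windows hold at least as many (0.0244%). Similar stretches recur along this window and carry half-sites, so the 5 are not all separate occurrences.
Sec23b: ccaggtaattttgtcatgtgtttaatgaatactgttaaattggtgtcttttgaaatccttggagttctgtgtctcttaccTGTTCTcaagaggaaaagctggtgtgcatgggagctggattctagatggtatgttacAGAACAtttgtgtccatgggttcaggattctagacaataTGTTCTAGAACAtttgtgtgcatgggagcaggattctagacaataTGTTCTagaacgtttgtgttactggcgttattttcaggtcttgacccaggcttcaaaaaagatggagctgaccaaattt
The match is a description of the letters. The first start of Sec23b had no half-site, and the array does not tell which start the transcripts used.

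On the lower side, Cndp2, a cytosolic dipeptidase, gave 1002, 977 and 815 on PRKO P4 arrays and 778, 922 and 811 on PRKO vehicle arrays, and 588, 610.1 and 583 on WT P4 arrays and 904, 1107 and 984 on WT vehicle arrays. The 3 WT P4 arrays were the lowest of all 12. The PRKO effect was 0.15 ± 0.12 and the WT effect −0.72 ± 0.12, a difference of −0.86 ± 0.16 (limma, adjusted p = 0.0379). Tiam1, an activator of the small GTPase Rac, read 181, 179.9 and 168 on PRKO P4 arrays and 155, 143 and 180.2 on PRKO vehicle arrays, and 101, 97.8 and 99.5 on WT P4 arrays and 135, 166 and 160.1 on WT vehicle arrays, with the WT P4 arrays again below every other array. Its difference was −0.62 ± 0.12 (limma, adjusted p = 0.0379), and that of its other probe set −0.03 ± 0.13, which did not pass. Kcnq1 encodes the pore subunit of a voltage-gated potassium channel. It gave 149, 167 and 153 on PRKO P4 arrays and 154, 163 and 151 on PRKO vehicle arrays, and 118, 129.6 and 134 on WT P4 arrays and 209, 222 and 202 on WT vehicle arrays. The WT groups stood on either side of the PRKO groups, which overlapped. Its PRKO effect was −0.0015 ± 0.08, the WT effect −0.61 ± 0.08 and the difference −0.61 ± 0.12 (limma, adjusted p = 0.0379), while the other probe set gave 0.02 ± 0.18. In Tiam1, Kcnq1 and Sec23b the probe sets of 1 gene therefore disagree, and each call rests on 1 of them. The calls of Pcmt1, Acod1 and Alox12e also rest on 1 probe set each. Their other probe sets gave smaller differences of the same sign that did not pass.

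The other 2 probe sets that passed name no single gene in the annotation used. Probe set 96912_s_at, annotated to several genes, read 1916, 2132 and 1553 on PRKO P4 arrays and 1771, 1298 and 1362 on PRKO vehicle arrays, and 4333, 4247 and 4722 on WT P4 arrays and 1504, 1189.8 and 1365 on WT vehicle arrays. Its WT effect was 1.69 ± 0.18 and its PRKO effect of 0.33 ± 0.18 was the largest among the 13, and the difference was 1.36 ± 0.26 (limma, adjusted p = 0.0379). Probe set 92533_at gave 87.2, 94.2 and 98.8 on PRKO P4 arrays and 92.3, 106 and 102 on PRKO vehicle arrays, and 373, 247 and 216 on WT P4 arrays and 104, 121 and 113 on WT vehicle arrays, with a difference of 1.15 ± 0.20 (limma, adjusted p = 0.0202).

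In all 13 probe sets the WT P4 arrays lay entirely above or below the WT vehicle arrays, which 19.8% of all probe sets do in WT. In PRKO this held for 2 of the 13, Alox12e and Pcmt1, against 22.3% of all probe sets in PRKO. The median size of the 13 effects was 0.13 in PRKO, with a largest of 0.33, and 1.15 in WT. The PRKO effect was larger than the WT effect in 0 of the 13, and its sign was opposite to that of the WT effect in 9. A difference of effects and its 2 parts share arrays, so these counts describe the 13 and add no support to them. Leaving out each of the 12 arrays in turn, 5 of the probe sets passed every time: those of Spink1, Acot7, Acod1 and both of S100g. Alox12e passed in 11 of the 12. The number of all probe sets that passed lay between 5 without WT vehicle replicate 3 and 32 without WT vehicle replicate 1, so the length of the list depends on single arrays.

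**Figure D2:**
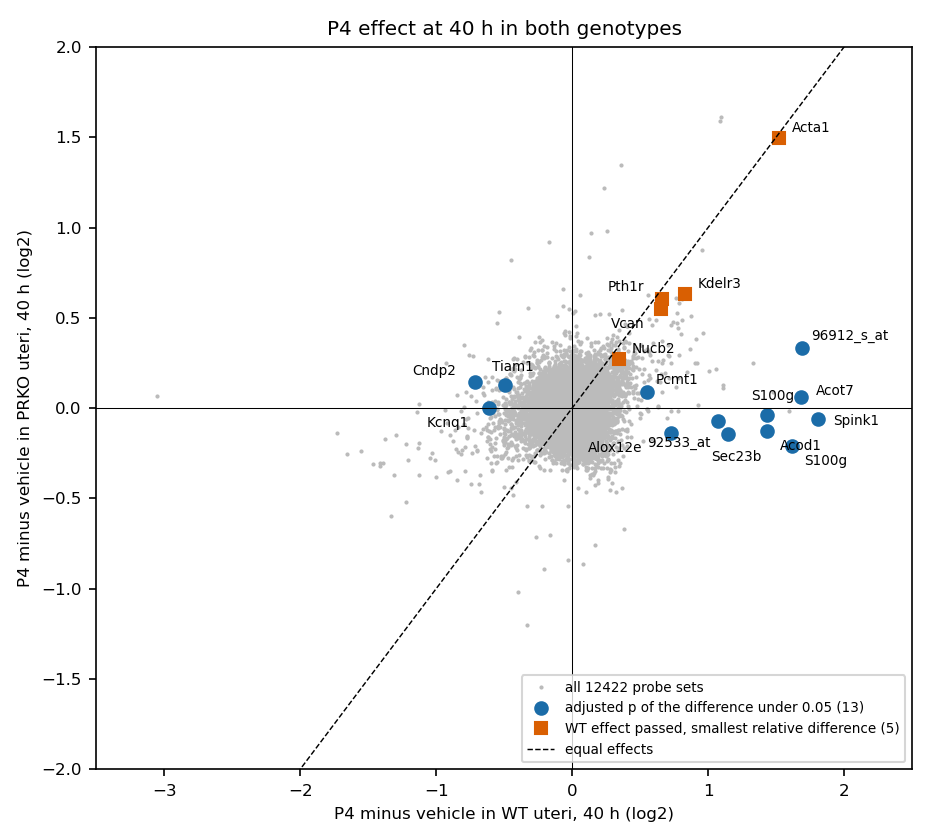
Log2 effect of P4 at 40 h in PRKO uteri (vertical axis) against that in WT uteri (horizontal axis), for all 12422 probe sets (grey), the 13 whose difference passed (blue circles) and 5 whose WT effect passed with the smallest relative difference (orange squares). The blue circles lie near 0 on the PRKO axis, none beyond 0.33 in size, and the orange squares lie near the dashed line of equal effects.

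Just inside the threshold stood Sec23b and Pcmt1. Just outside it stood Tspan8, a tetraspanin of epithelial cells (−1.18 ± 0.24), the glucose transporter gene Slc2a3 (0.84 ± 0.17) and Tgfbi, a secreted matrix protein gene (−1.59 ± 0.32), with adjusted p-values of 0.0541, 0.0549 and 0.0549 by limma. The arrays of 40 h varied less than those of 4 h, with a median SD within a group of 0.0767 to 0.0974 against 0.111 to 0.147, and the fit above shares 1 spread among all. A limma fit of the 12 arrays of 40 h alone called 18 probe sets (0.145%), 8 higher and 10 lower in WT, of which 9 were among the 13, 7 of them higher. The split between directions is therefore not settled by these arrays: 10 against 3 with the shared spread and 8 against 10 without it. Sec23b, Alox12e, Pcmt1 and Tiam1 did not pass in the smaller fit (limma, adjusted p = 0.0559 to 0.0582).

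The 9 further probe sets, called only with the 12 arrays alone, are named here after their values were seen, and all but 99915_at, which has no gene in the annotation used, had a lower effect in WT. The largest in size was Clca1, a secreted protein gene of mucous epithelia, with 412, 613 and 533 on PRKO P4 arrays and 387, 417 and 719 on PRKO vehicle arrays, and 91.1, 83.2 and 151 on WT P4 arrays and 674, 1323 and 1525 on WT vehicle arrays. The 3 WT P4 arrays were far below every other array. The difference was −3.12 ± 0.66, with an adjusted p of 0.0731 in the 24-array and 0.00862 in the 12-array limma fit, and −0.0049 ± 0.14 at its other probe set. Here and in the next paragraph the error after ± is that of the 24-array fit, also beside a p-value of the 12-array fit. The standard error of the Clca1 difference in the 12-array fit was 0.41. Tgfbi gave 1619, 1917 and 1721 on PRKO P4 arrays and 1770.5, 2130.2 and 1905 on PRKO vehicle arrays, and 627, 647 and 699 on WT P4 arrays and 1500.4, 2935 and 2601 on WT vehicle arrays. Its difference of −1.59 ± 0.32 had an adjusted p of 0.0303 with the 12 arrays (limma, standard error 0.26 in that fit), and its other probe set gave 0.04.

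The transcription factor gene Cebpb (−0.75 ± 0.30, 12-array limma adjusted p = 0.0206), a known P4 target that the uterus needs for decidualization, read 629.7, 694 and 742 on PRKO P4 arrays and 806, 747 and 744 on PRKO vehicle arrays, and 369, 412 and 397 on WT P4 arrays and 836, 719 and 732 on WT vehicle arrays. WT P4 arrays were the lowest, although PRKO P4 arrays also lay below PRKO vehicle arrays. The remaining ones were the chemokine receptor gene Cxcr4 (−1.05 ± 0.33, 12-array limma adjusted p = 0.00616) and the carbonic anhydrase gene Car2 (−0.92 ± 0.20, 12-array limma adjusted p = 0.0241). With them came Wfdc2, a secreted protein gene of epithelial glands (−0.71 ± 0.28, 12-array limma adjusted p = 0.0204), the RNA-binding protein gene Hnrnpu (−0.57 ± 0.47) and the phosphoinositide-binding protein gene Plekha1 (−0.58 ± 0.20), both at a 12-array limma adjusted p of 0.0333. In the 12-array fit the standard errors were smaller: 0.11 for Cebpb, 0.13 for Cxcr4, 0.14 for Car2, 0.11 for Wfdc2, 0.095 for Hnrnpu and 0.097 for Plekha1. Other probe sets of Hnrnpu (0.01) and Plekha1 (0.22 and −0.08) did not show the same difference.

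P4 without its receptor changed no probe set past the threshold. In PRKO uteri 0 of 12422 passed (0%) by limma, with a lowest adjusted p of 0.551, and 831 had an unadjusted p under 0.05 against 621.1 by chance. With the 12 arrays alone 0 passed, at a lowest adjusted p of 0.194, and 1602 had an unadjusted p under 0.05. In WT uteri 191 passed (1.54%), 89 higher (0.716%) and 102 lower (0.821%) after P4, and 539 (4.34%) with the 12 arrays alone.

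Some of the WT changes had a like value in PRKO. The 5 with the smallest difference relative to the WT effect were Acta1, Pth1r, Vcan, Nucb2 and Kdelr3, and in each the P4 arrays lay above the vehicle arrays in both genotypes. Acta1, the skeletal muscle actin gene, gave 2689, 2093 and 1181 on PRKO P4 arrays and 1157, 589 and 393 on PRKO vehicle arrays, and 2373, 2277 and 2244 on WT P4 arrays and 1028, 544 and 839 on WT vehicle arrays. The PRKO effect was 1.49 ± 0.38 and the WT effect 1.52 ± 0.38, but the 95% interval of the difference ran from −1.09 to 1.15, so these arrays cannot tell equal effects from effects that differ by 1 on the log2 scale. Vcan, which encodes the matrix proteoglycan versican, read 666, 692 and 536 on PRKO P4 arrays and 476, 403 and 383 on PRKO vehicle arrays, and 566, 634 and 546 on WT P4 arrays and 313, 378 and 389.9 on WT vehicle arrays. Its difference was 0.10 (95% interval −0.34 to 0.54), from 0.55 in PRKO and 0.65 in WT. The parathyroid hormone receptor gene Pth1r had 689, 718 and 709 on PRKO P4 arrays and 493, 438 and 432 on PRKO vehicle arrays, and 593, 798 and 898 on WT P4 arrays and 495, 400.2 and 509 on WT vehicle arrays, with a difference of 0.06 (95% interval −0.42 to 0.53). Nucb2, a calcium-binding protein gene, gave 0.27 in PRKO and 0.35 in WT, a difference of 0.07 (95% interval −0.17 to 0.32). Kdelr3, a receptor that returns proteins to the endoplasmic reticulum, gave 0.63 in PRKO and 0.83 in WT, a difference of 0.20 (95% interval −0.31 to 0.72). All 5 PRKO effects had a limma adjusted p of 0.703, and the genes were chosen for a small difference.

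The same can be read over all WT changes, since the PRKO and WT effects rest on different arrays. Of the 89 probe sets that rose in WT, 68 (76.4%) were also above 0 in PRKO, against 36.6% of all probe sets, and their median effect was 0.13 in PRKO and 0.65 in WT. Of the 102 that fell in WT, 81 (79.4%) were below 0 in PRKO, against 63.4% of all, with a median of −0.12 in PRKO and −0.61 in WT. For 17 of the 89 (19.1%) and 5 of the 102 (4.9%) the PRKO effect was more than 50% of the WT effect. Gap43, a gene of growing axons, and Asl, a urea cycle enzyme gene, are examples chosen after their values were seen. Gap43 gave 126, 129 and 136 on PRKO P4 arrays and 90.7, 82.5 and 81.2 on PRKO vehicle arrays, and 149.5, 198 and 158 on WT P4 arrays and 91.3, 84 and 86.1 on WT vehicle arrays, or 0.48 ± 0.09 in PRKO and 0.74 ± 0.09 in WT. Asl gave 0.47 ± 0.10 in PRKO and 0.77 ± 0.10 in WT, but −0.22 and −0.20 at its other probe set. A WT effect was picked for passing a threshold and the PRKO effect was not, so the size of the WT medians is set in part by that choice.

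Known P4 targets of the uterus carried 4 of the 10 genes. Of 36 measured targets, Spink1, S100g, Acot7 and Acod1 passed with a higher effect in WT and 0 with a lower one, against 0.105% of all probe sets. Spink1, S100g, Acot7 and Npl were put on this list with these data known, so neither the count nor the medians that follow are evidence about the list. Its median was −0.06 in PRKO and 0.22 in WT, with a median difference of 0.18, beside −0.04, 0.0008 and 0.04 over all probe sets. Other targets had large differences that did not pass (limma): Npl, a sialic acid lyase gene (1.62 ± 0.35, adjusted p = 0.0885), the activin-binding protein gene Fst (0.75 ± 0.29, adjusted p = 0.476) and the hedgehog ligand gene Ihh (0.52 ± 0.16, adjusted p = 0.331). Npl read 124, 136 and 146 on PRKO P4 arrays and 138, 143 and 131 on PRKO vehicle arrays, and 727, 708 and 843 on WT P4 arrays and 408, 205 and 138 on WT vehicle arrays, so 1 WT vehicle array was high among the vehicle arrays. The signal of Ihh was 686, 650.5 and 874.2 on PRKO P4 arrays and 879, 877 and 874.4 on PRKO vehicle arrays, and 1102, 1189.7 and 1028 on WT P4 arrays and 916, 995 and 838 on WT vehicle arrays. The highest PRKO P4 array of Ihh and the lowest PRKO vehicle array were thus nearly equal. Its PRKO effect, −0.25 ± 0.11, did not pass (limma, adjusted p = 0.703). Hoxa11, a homeobox gene of the stroma, had an effect of 0.37 ± 0.14 in PRKO and 0.66 ± 0.14 in WT, with a difference of 0.29 ± 0.20 (limma, adjusted p = 0.696).

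**Figure D3:**
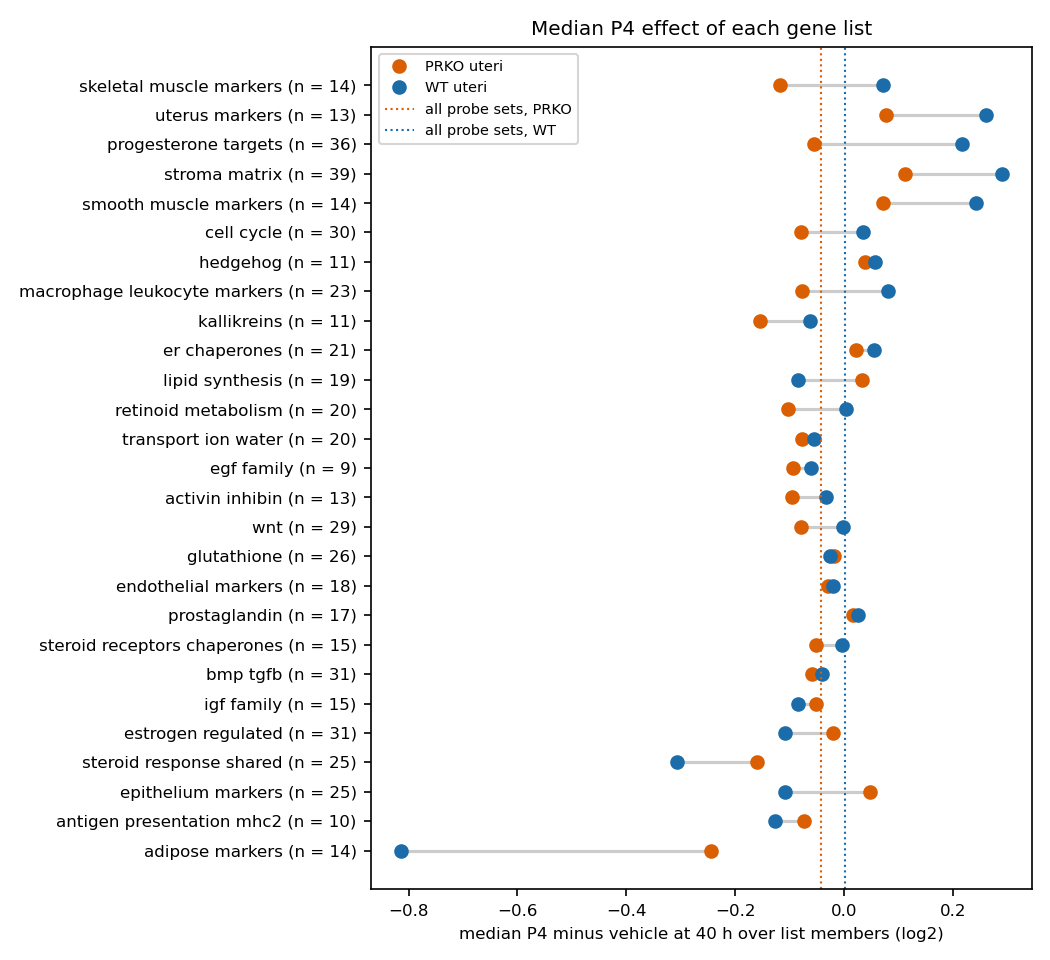
Median log2 effect of P4 at 40 h over the measured members of each of 27 gene lists, in PRKO (orange) and WT uteri (blue), ordered by the median difference of effects, with dotted lines at the medians of all probe sets. The adipose list stands apart at −0.24 in PRKO and −0.81 in WT. The progesterone target list, in part chosen with these data known, has −0.06 in PRKO and 0.22 in WT.

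Of the 27 gene lists, 22 had 0 members past the threshold for the difference, and their median differences ran from −0.67 to 0.20. Among 25 epithelium markers, Spink1 passed, and 17 had a difference below 0, against 42.1% of all probe sets, with a median effect of 0.05 in PRKO and −0.11 in WT. The epithelial keratin gene Krt7 gave 317, 358 and 333 on PRKO P4 arrays and 301, 295 and 359 on PRKO vehicle arrays, and 226, 201 and 239 on WT P4 arrays and 306, 387 and 409 on WT vehicle arrays, a difference of −0.72 ± 0.16 that did not pass (limma, adjusted p = 0.108). Of 31 estrogen-regulated genes S100g passed, at a list median of −0.02 in PRKO and −0.11 in WT. S100g was also the 1 of 20 transport genes that passed, and Sec23b the 1 of 21 genes of endoplasmic reticulum folding and export. Over all probe sets 0.105% passed. The 12-array fit called 1 higher and 2 lower in the estrogen-regulated list, and likewise among the transport genes. It called 1 higher and 1 lower epithelium marker, and 0 of the 21 genes of folding and export. The collagen and matrix genes had a median of 0.11 in PRKO and 0.29 in WT, and 0 of 39 passed for the difference. In WT 8 of the 39 rose, where 0.716% of all probe sets did. In PRKO 10 of the 39 had P4 arrays entirely above vehicle arrays, where 5.88% of all probe sets did. The fibrillar collagen gene Col3a1 gave 3248, 3508 and 3352 on PRKO P4 arrays and 2798, 2652 and 2295 on PRKO vehicle arrays, and 4263, 4647 and 5341 on WT P4 arrays and 2076, 2429 and 3117 on WT vehicle arrays, and its difference of 0.52 ± 0.23 did not pass (limma, adjusted p = 0.539). Smooth muscle markers had a median of 0.07 in PRKO and 0.24 in WT, with 0 of 14 past the threshold for the difference. Genes that respond to glucocorticoids as well as progestins lay below 0 in 23 of 25 cases in PRKO, where 63.4% of all probe sets did, with a median of −0.16 in PRKO and −0.31 in WT, and 0 passed for the difference.

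Adipose tissue markers had the lowest median difference, −0.67, with effects of −0.24 in PRKO and −0.81 in WT. Of 14 measured of 18, 0 passed for the difference and 13 had a difference below 0, against 42.1% of all probe sets. In WT 6 of the 14 fell, where 0.821% of all probe sets did. Adipoq, the adipocyte hormone adiponectin, gave 1997, 1868 and 2212 on PRKO P4 arrays and 2026, 2563 and 3009 on PRKO vehicle arrays, and 505, 782 and 1365 on WT P4 arrays and 2019, 2026 and 2705 on WT vehicle arrays, a difference of −1.11 ± 0.36 (limma, adjusted p = 0.369). The summed signal of the 14 markers was 15176 to 17931 on PRKO P4 arrays and 18432 to 20808 on PRKO vehicle arrays, and 7818 to 12504 on WT P4 arrays and 16876 to 19465 on WT vehicle arrays, and no marker was at 0 on any array. In pooled tissue, fewer cells of a type and less RNA per cell cannot be told apart. The 3' to 5' signal ratio of Gapdh, a sign of RNA quality, moved with treatment in WT as well. It was 1.37 to 1.39 on PRKO P4 arrays and 1.34 to 1.46 on PRKO vehicle arrays, and 1.23 to 1.30 on WT P4 arrays and 1.48 to 1.60 on WT vehicle arrays. With this ratio as a covariate all 13 probe sets passed, at 94.5% to 104% of their difference. Over all 24 arrays the ratio ran up to 3.67, on a 4 h array, but only from 1.23 to 1.60 on those of 40 h. The fitted slope therefore rests mainly on 4 h arrays, and the part of RNA quality in the 40 h differences was not tested. With the adipose score, the mean log2 signal of the markers, as a covariate, all 13 kept their sign at 71.5% to 116% of their difference and 0 passed, at a lowest limma adjusted p of 0.0544. In that fit 0 of all 12422 passed, 557 had an unadjusted p under 0.05, and the median standard error of a difference was 0.175, against 0.144 without the covariate.

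**Figure D4:**
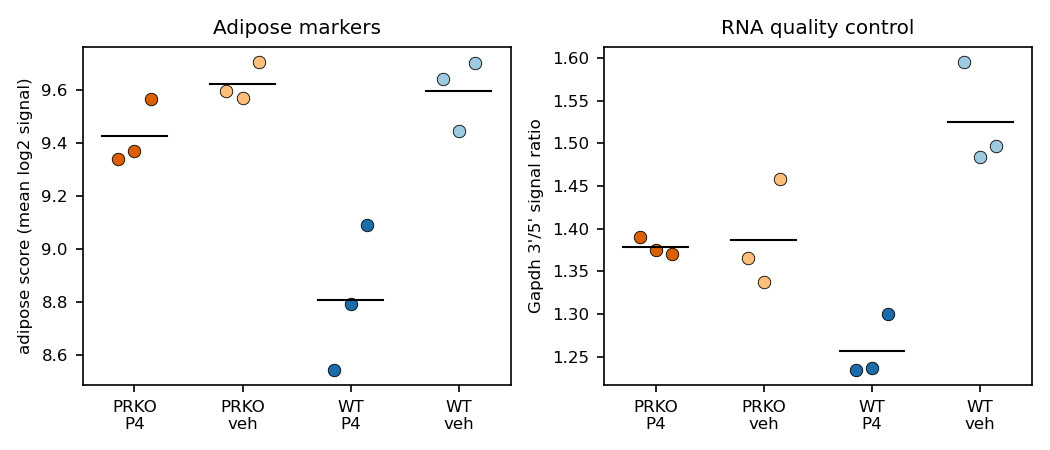
Adipose score (mean log2 signal of 14 markers, left) and Gapdh 3'/5' signal ratio (right) on the 12 arrays of 40 h, with points for arrays and lines for the means of 3; neither axis starts at 0. The WT P4 arrays lie lowest in both panels, with scores of 8.54 to 9.09 and ratios of 1.23 to 1.30.

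Markers of other tissues also varied between the groups on the same arrays. Summed skeletal muscle markers read 6728 to 7754 on PRKO P4 arrays and 6112 to 6622 on PRKO vehicle arrays, and 8199 to 8600 on WT P4 arrays and 6282 to 6478 on WT vehicle arrays. The sums on P4 arrays thus lay above those on vehicle arrays in both genotypes, but a sum gives most weight to bright markers. In PRKO the mean of Acta1 was 1987 under P4 and 713 under vehicle. Of the 14 markers, 11 had a PRKO effect below 0, where 63.4% of all probe sets did, with a median of −0.12 in PRKO and 0.07 in WT. Of the 14 skeletal muscle markers measured, Acta1 among them, 13 had a difference of effects above 0, against 57.9% of all probe sets, with a median of 0.20, 0 passed for the difference, and none was at 0 on any array. The summed smooth muscle signal was 42911 to 45401 on PRKO P4 arrays and 40659.6 to 41580.1 on PRKO vehicle arrays, and 48911 to 52811 on WT P4 arrays and 42880 to 44676 on WT vehicle arrays. Summed epithelium markers read 18796 to 19935 on PRKO P4 arrays and 17984 to 18954 on PRKO vehicle arrays, and 18447 to 20775 on WT P4 arrays and 20722 to 22551 on WT vehicle arrays. The smooth muscle sums did not overlap between P4 and vehicle arrays in either genotype, and the epithelium sums overlapped in both. Both readings change with the mean log2 signal of the markers, which weights them evenly. For smooth muscle it overlapped in PRKO, at 10.869 to 11.006 under P4 and 10.835 to 10.878 under vehicle. For epithelium it did not overlap in WT, at 9.141 to 9.247 under P4 and 9.278 to 9.305 under vehicle. The part of these 3 tissues in the differences above was not tested.

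Whether the genotype difference at 40 h differed from that after a single injection at 4 h was tested as a contrast of its own. By limma 4 probe sets passed (0.0322%), 3 with a higher difference at 40 h (0.0242%) and 1 with a lower one (0.00805%), and 412 had an unadjusted p under 0.05, against 621.1 that uniform p-values would give. For S100g the difference of effects was −0.71 ± 0.23 at 4 h and 1.82 ± 0.23 at 40 h, a change of 2.54 ± 0.33 (limma, adjusted p = 0.00071). At 4 h its signal was 302, 397 and 309 on PRKO P4 arrays and 441, 410.5 and 380.2 on PRKO vehicle arrays, and 287, 235 and 239 on WT P4 arrays and 433, 461 and 755 on WT vehicle arrays. WT P4 arrays were thus the lowest group at 4 h and the highest at 40 h. The dimmer probe set changed by 2.34 ± 0.28 (limma, adjusted p = 0.000194).

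Spink1 had a difference of −0.16 ± 0.25 at 4 h, when its signal was 97.2, 81.1 and 90 on PRKO P4 arrays and 99.5, 86.3 and 77.5 on PRKO vehicle arrays, and 75.5, 80.7 and 91.1 on WT P4 arrays and 86.9, 102 and 92.1 on WT vehicle arrays. All 4 groups overlapped at that time. The change between the times was 2.03 ± 0.35 (limma, adjusted p = 0.0272). This call was lost in 8 of the 12 fits that left out 1 array and without both 4 h arrays of high Gapdh ratio (limma, adjusted p = 0.154), where the change was 1.97. Cyp26a1, which breaks down retinoic acid, changed the other way, with a difference of 3.20 ± 0.22 at 4 h (limma, adjusted p = 3.36e-08), where 0.0966% of all probe sets passed and 0.0886% were higher, and −0.10 ± 0.22 at 40 h, a change of −3.30 ± 0.32 (limma, adjusted p = 1.14e-05). Its signal at 4 h was 111, 106 and 109 on PRKO P4 arrays and 162, 117 and 109 on PRKO vehicle arrays, and 1212, 1171 and 725 on WT P4 arrays and 98, 103 and 89.4 on WT vehicle arrays. At 40 h it was 115, 130.0 and 133 on PRKO P4 arrays and 130.3, 154 and 162 on PRKO vehicle arrays, and 137, 121 and 121 on WT P4 arrays and 120.1, 199 and 175 on WT vehicle arrays, with all groups overlapping. Acot7 was the gene of the 10 with the largest difference at 4 h, 1.20 ± 0.24 (limma, adjusted p = 0.0548), and its change between the times, 0.42 ± 0.34, did not pass (limma, adjusted p = 1). The other 7 genes had differences between −0.09 and 0.24 at 4 h, and none of them passed for the change between the times. The smallest adjusted p among them was 0.0788 for Acod1 (1.53 ± 0.30, limma), so for these genes a later appearance is not shown by these arrays.

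**Figure D5:**
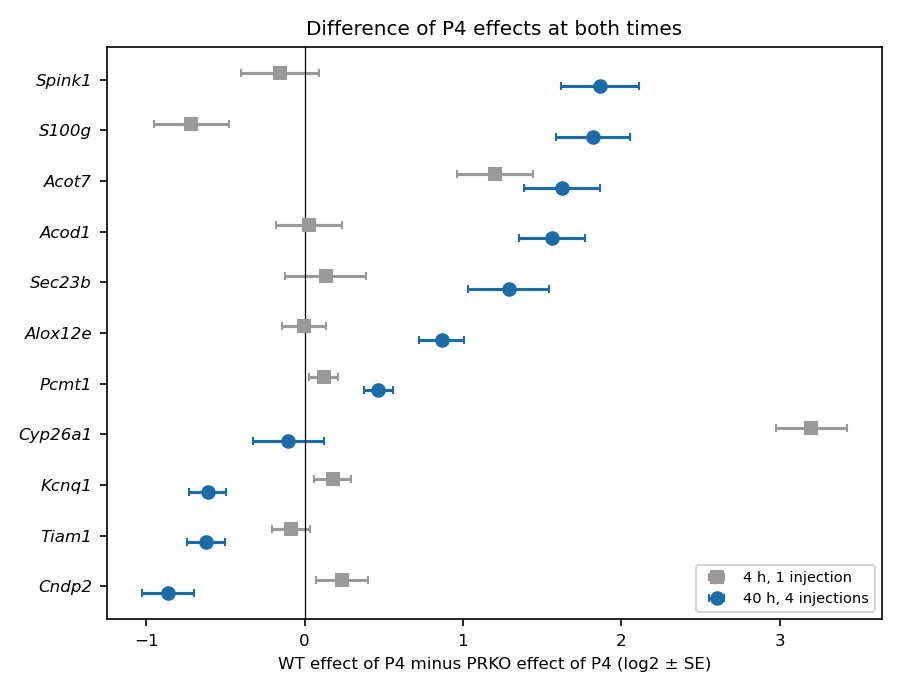
Difference of P4 effects, WT minus PRKO (log2 ± SE from the 24-array fit, 3 arrays a group), at 4 h (grey squares) and at 40 h (blue circles) for the 10 genes that passed at 40 h and for Cyp26a1. S100g has opposite signs at the 2 times, Acot7 is high at both (1.20 and 1.62), and Cyp26a1 has 3.20 at 4 h and −0.10 at 40 h.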

How the data were processed

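Affymetrix arrays were hybridized with pooled uterine RNA, 3 arrays for each of 8 groups. The authors deposited linear signal intensity, 1 value per probe set and array, and the submitters' processing notes name MAS5. Its version and settings and the genome build of the array appear in no source used here. The precision is limited by the number of arrays.

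Each array was scaled to a 2%-trimmed mean of 500, 32 was added and log2 taken, so changes of dim genes are compressed. All 12422 non-control probe sets were fitted together over 24 arrays as group means with limma 3.58.1 in R 4.3.3 (moderated two-sided tests, intensity trend, 16 residual degrees of freedom), with Benjamini-Hochberg adjustment over all probe sets and a threshold of 0.05. The procedure was also run on simulated arrays with independent noise and, for each probe set, the same spread in all groups. That run therefore does not cover the unequal spreads of the real groups. The platform annotation gave 1 gene for 10833 probe sets, several for 396 and none for 1193.

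The text names the highest and lowest differences among those that passed (up to 12 each, P4 and vehicle arrays not overlapping in at least 1 genotype), those that passed for the time difference (up to 5 each way), up to 4 per gene list, 5 WT changes with the smallest relative difference, and Pgr. The comparison, the genes and the 27 lists were chosen with earlier results of these data known. Lists were described by each gene's brightest probe set, with no set test. Alternatives covered the arrays in the fit, the offset, scaling, a filter on dim probe sets, the trend, a replicate block, covariates and single arrays left out.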

Additional observations from a re-analysis of the deposited data

Results flagged for a closer look

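The P4 effect at 40 h differed between PRKO and WT uteri, by the test of the difference itself, for 13 probe sets, and 12 are listed here with S100g given by its brighter probe set. As WT minus PRKO on the log2 scale they were Spink1 (1.87), S100g (1.82), Acot7 (1.62), Acod1 (1.56), Sec23b (1.29), Alox12e (0.87) and Pcmt1 (0.47) on the higher side. Cndp2 (−0.86), Tiam1 (−0.62) and Kcnq1 (−0.61) were on the lower side, and 96912_s_at (1.36) and 92533_at (1.15) name no single gene.

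The same difference changed between 4 h and 40 h, by a test of that change, for Spink1 (2.03), both probe sets of S100g (2.54 and 2.34) and Cyp26a1 (−3.30).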

How the results depend on the processing

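The differences of Spink1, S100g, Acot7 and Acod1 passed in 22 of 23 alternatives, the exception being the adipose score as a covariate, and all 13 kept their sign in every alternative that tested them (Tiam1 was left out with the dim probe sets). For the 40 h results 1 of the 23, without both 4 h arrays of high Gapdh ratio, was chosen after seeing the data. Of the 13, Pcmt1 passed in the fewest, 8 of 23. The count of 13 for the difference moved by more than 1.5 times under 3 kinds of fit: 27 with a replicate block (12 higher, 15 lower), 39 with the Gapdh ratio as a covariate (27 higher, 12 lower) and 0 with the adipose score. Without 1 array it was 5 to 32: 7, 6 and 9 without PRKO P4 replicates 1 to 3, 7, 6 and 8 without PRKO vehicle replicates, 7, 7 and 11 without WT P4 replicates, and 32, 7 and 5 without WT vehicle replicates. The 191 of the WT effect became 539 with the 12 arrays of 40 h alone, 386 with the replicate block, 369 with the Gapdh ratio and 1 with the adipose score, and 90 to 189 without 1 array. The PRKO effect stayed at 0 in all of them. The 4 of the time difference ranged from 3 to 7 without 1 array. The cause was not tested, except that fits without an array hold fewer samples. Whether the replicate numbers pair the arrays is not settled: 12 of 18 same-numbered pairs, not all, correlated above 0.1 (−0.14 to 0.49), so they were not treated as pairs, and in 13 of 18 the own number matched best, a hint from the data that the labels do not give. Dim probe sets, compressed by the offset, and 3 arrays a group limit what can be seen.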

Other observations

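A few genes had P4 effects of opposite sign in the genotypes without passing the test of the difference, and they were picked after their values were seen. Csf1r, the receptor of the macrophage growth factor, read 696, 646 and 858 on PRKO P4 arrays and 903, 937 and 932 on PRKO vehicle arrays, and 999.5, 1066 and 964 on WT P4 arrays and 810.0, 882 and 828 on WT vehicle arrays. Its PRKO P4 arrays lay below the PRKO vehicle arrays and its WT P4 arrays above the WT vehicle arrays, for a difference of 0.59 ± 0.15 (limma, adjusted p = 0.198), and 0.47 ± 0.34 at its other probe set. Gdf10, a growth factor gene of the BMP family, gave 1037, 891 and 1003 on PRKO P4 arrays and 699, 698 and 688 on PRKO vehicle arrays, and 391, 479 and 633 on WT P4 arrays and 685, 670.3 and 869 on WT vehicle arrays, with P4 arrays above vehicle arrays in PRKO and below them in WT. Its difference was −1.02 ± 0.34 (limma, adjusted p = 0.416).

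In retinoid handling, the retinaldehyde dehydrogenase gene Aldh1a1 read 1130.4, 1324 and 1236 on PRKO P4 arrays and 1337, 1269 and 1378 on PRKO vehicle arrays, and 539, 651 and 568 on WT P4 arrays and 905, 982 and 1188 on WT vehicle arrays, a difference of −0.66 ± 0.17 (limma, adjusted p = 0.232), and its dim second probe set gave a difference near 0. The retinol carrier gene Rbp4 gave a PRKO effect of −0.17 ± 0.21 and a WT effect of −1.38 ± 0.21, and its difference of −1.21 ± 0.30 did not pass (limma, adjusted p = 0.2). With the adipose score as a covariate the difference of Rbp4 was −0.50 ± 0.25, or 41.6% of its size, and that of Aldh1a1 −0.74 ± 0.21, or 112%. Neither passed in that fit, and the part of adipose tissue in these differences was not tested. The prostaglandin E receptor gene Ptger3 had 106, 107 and 107 on PRKO P4 arrays and 96.5, 77.1 and 81.4 on PRKO vehicle arrays, and 171, 244 and 296 on WT P4 arrays and 89.4, 48.6 and 85.9 on WT vehicle arrays, a difference of 1.08 ± 0.29 (limma, adjusted p = 0.289), and its second probe set, among the dimmest of the array, gave 0.09.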
